A study of Mus musculus with 20 samples.

Results

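A group of 98 mouse promoters held less methyl-capture signal in sperm of males exposed to DEHP before birth than in sperm of control males, in both strains examined. They were taken from the 22480 promoters of the study. The promoters were selected on the measured values themselves: the log2 ratio of control over DEHP had to reach 1, a fold of 2, within each strain. Promoters also had to hold 11 to 62 CG sites, to lie on chromosomes 1 to 19, and not to carry a symbol beginning with Mir, Olfr, Vmn or Zfp or the symbols Sfi1 or Prr22. Of the 22480 promoters, 11327 met these other conditions and are called eligible. Since both ratios chose the members, the ratios below are a description of them and were not tested.

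The study followed F1 males of the inbred strains C57BL/6J and FVB/N. Mothers received bis(2-ethylhexyl) phthalate (DEHP), a plasticizer, in corn oil by gavage at 300 mg/kg/day on days 9 to 19 of gestation, while mothers of controls received the corn oil alone over the same days. Sperm was taken at 8 weeks of age from the vas deferens and epididymis, and preparations in which somatic cells were seen under the microscope were not kept. Each strain thus had a control group and a DEHP group, and each of these 4 groups held 5 libraries. The number of litters behind them is not given in the sources used here. The 10 DEHP libraries and the 10 control libraries were submitted for sequencing separately, each with both strains and with different read lengths, so that treatment and submission cannot be told apart in any ratio given here.

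Methylation of DNA in mammals falls mostly on the cytosine of CG sites. In sperm most of the genome is methylated, while promoters rich in CG sites are kept free of the mark, and gene bodies, coding exons included, usually carry it. In MBD-sequencing, fragments with methylated CG sites are captured by a methyl binding domain protein and sequenced, so that the number of reads over a region grows both with its methylation and with its number of CG sites. Each probe spanned 2200 bases, from 2000 bases upstream to 200 bases downstream of a gene start. Values are the means and SDs of normalized reads over the 5 libraries of a group, as computed and deposited by the authors with 1 decimal. The depth of single libraries is unknown here.

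The densest CG stretches are shown for the 4 members whose lower ratio of both strains was highest. Each line gives the 200 bases of the probe with most CG sites, read in GRCm38.p6 (mm10) 5′ to 3′ on the strand of the gene, with CG sites in capitals.
Samd11: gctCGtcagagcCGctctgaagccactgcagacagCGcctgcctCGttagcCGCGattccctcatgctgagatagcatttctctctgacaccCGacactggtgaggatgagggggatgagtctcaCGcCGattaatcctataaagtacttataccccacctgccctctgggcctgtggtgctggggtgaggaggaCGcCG
Sult2a4: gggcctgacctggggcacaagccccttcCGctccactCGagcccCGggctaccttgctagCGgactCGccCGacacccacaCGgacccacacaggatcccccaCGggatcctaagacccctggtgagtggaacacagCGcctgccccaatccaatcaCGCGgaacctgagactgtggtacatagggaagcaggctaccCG
Gm13826: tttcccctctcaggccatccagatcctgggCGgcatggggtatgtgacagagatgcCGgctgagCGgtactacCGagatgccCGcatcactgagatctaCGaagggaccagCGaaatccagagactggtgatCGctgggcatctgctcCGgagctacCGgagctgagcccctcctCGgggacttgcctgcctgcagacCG
Spib: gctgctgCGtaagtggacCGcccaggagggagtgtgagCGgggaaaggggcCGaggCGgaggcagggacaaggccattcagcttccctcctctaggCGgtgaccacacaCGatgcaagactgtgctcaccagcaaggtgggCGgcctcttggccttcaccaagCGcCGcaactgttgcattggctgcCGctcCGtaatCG
The Samd11 stretch, chr4:156255468-156255667 on the minus strand, held 11 CG sites between 329 and 130 bases upstream of the gene start, and 90 of its bases lay in annotated exons of Samd11 itself. The Sult2a4 stretch, chr7:13989917-13990116 on the minus strand, held 12 CG sites and overlapped no annotated gene. Masked repeat sequence made up 77.2% of the Sult2a4 probe, against medians of 15.6% in members and 21.4% in eligible promoters. The Gm13826 stretch, chr5:115110820-115111019 on the minus strand, also held 12 CG sites, and 150 of its bases were coding sequence of Acads, a mitochondrial acyl-CoA dehydrogenase. The Spib stretch, chr7:44533693-44533892 on the minus strand, held 13 CG sites between 1821 and 1622 bases upstream, and 113 of its bases were coding sequence of Pold1, the catalytic subunit of DNA polymerase delta.

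The first question was how far the signal differed between control and DEHP males. Over the members, the authors' mean had a median of 53.1 normalized reads in C57BL/6J controls against 14.2 in C57BL/6J DEHP males. In FVB/N the medians were 37.2 in controls and 15.0 in DEHP males. The authors' means did not sum to the same total in each group: within C57BL/6J they summed to 226268 for controls and 153283 for DEHP males, and within FVB/N to 141091.6 and 150346. They were therefore scaled to a common sum, by factors of 0.741, 1.09, 1.19 and 1.12 in this order, before ratios were taken with a pseudocount of 1. After scaling, the median log2 ratio of control over DEHP over the members was 1.24 in C57BL/6J, with a range from 1.0 to 1.93. For FVB/N it was 1.25, with a range from 1.02 to 2.09. Median folds were 2.36 and 2.38. Over the 11327 eligible promoters the C57BL/6J median was -0.29 and that of FVB/N -0.30. The sign of the middle of the promoters depends on the scaling: over all promoters the medians were -0.33 and -0.29 here, 0.10 and -0.35 as deposited, and 0.17 and 0.18 with means scaled to a common median.

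In C57BL/6J, 498 of all promoters (2.22%) and 208 of the eligible ones (1.84%) had a ratio of at least 1. The same held for 811 (3.61%) and 312 (2.75%) in FVB/N. Both strains passed together in 256 of all promoters (1.14%) and in the 98 members (0.865% of the eligible). The members are 47.1% of the eligible promoters past the threshold for C57BL/6J and 31.4% of those for FVB/N. In the opposite direction, 490 eligible promoters (4.33%) had ratios of -1 or less in both strains. With the means taken as deposited these counts became 173 and 191, and with means scaled to a common median 902 and 52. With the common sum and another pseudocount they became 43 and 10 at 5, and 127 and 1082 at 0.1, so the balance between losses and gains rests on both the scaling and the pseudocount.

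**Figure D1:**
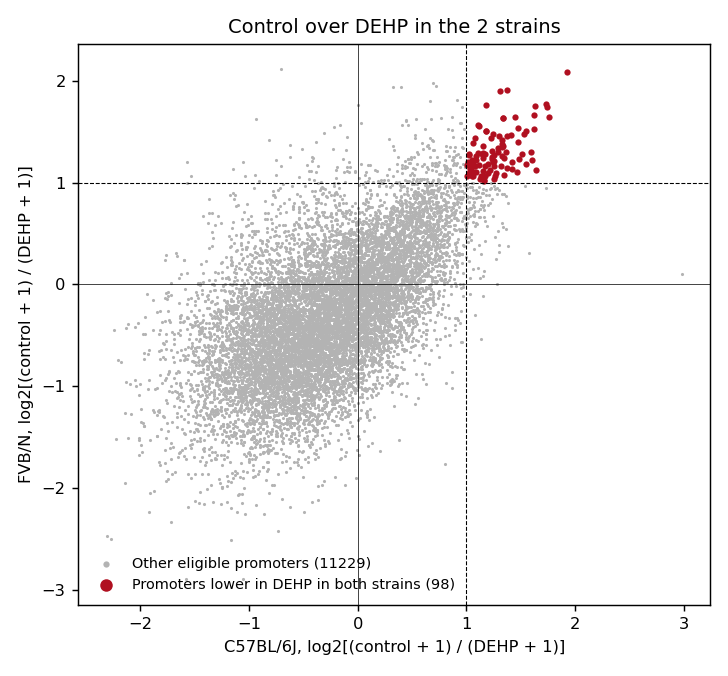
Each point is an eligible promoter, with the log2 ratio of control over DEHP in C57BL/6J on the x axis and in FVB/N on the y axis. The 98 members lie right of and above the dashed lines at 1, and the bulk of the 11327 eligible promoters lies around -0.29 and -0.30.

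With the pseudocount of 1, the member with the highest ratios was Samd11, a gene for a sterile alpha motif protein (chr4:156255139-156257338). Its authors' mean was 38 ± 12.8 normalized reads (SD of 5 libraries) for C57BL/6J controls and 6.1 ± 4.2 for the exposed C57BL/6J males, and 9.1 ± 2.2 and 1.6 ± 1.5 for control and exposed FVB/N males. The log2 ratios were 1.93 and 2.09. With a pseudocount of 5 they were 1.51 and 1.22, below those of Gm13826 (1.59 and 1.61). Sult2a4, a sulfotransferase gene, had 50.4 ± 15.1 and 9.6 ± 3.5 normalized reads in C57BL/6J control and DEHP males and 37.6 ± 6.7 and 11.1 ± 1.8 in those of FVB/N, with ratios of 1.74 and 1.77. At both promoters the means and SDs put the FVB/N DEHP libraries below the FVB/N control libraries, under a bound given with the spread between libraries. The C57BL/6J libraries could overlap.

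Gm13826 followed, with 111.0 ± 36 and 21.9 ± 11.7 normalized reads for C57BL/6J and 78.0 ± 24.2 and 24.3 ± 9.1 for FVB/N, and a ratio of 1.74 in each strain. Spib, an Ets family transcription factor of B cells, had 91.6 ± 36.4 and 17.7 ± 6.1 for C57BL/6J and 70.5 ± 22.1 and 23.4 ± 5.0 for FVB/N (ratios 1.76 and 1.65). Bcl2l12, a relative of the Bcl-2 family, had 54.6 ± 19.6 and 11.3 ± 4.7 for C57BL/6J and 46.5 ± 9.9 and 14.1 ± 6.1 for FVB/N (ratios 1.63 and 1.75). In these 3 promoters every group mean of DEHP males was under 25 normalized reads and every control mean above 46.

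Hsd3b7, an enzyme of bile acid synthesis, had ratios of 1.62 and 1.66, and Lcat, which esterifies cholesterol in plasma lipoproteins, had 1.48 and 1.54. Averaged over both strains, Lcat was also the member of highest scaled signal in controls. It had 109.0 ± 33.7 and 25.9 ± 10.8 normalized reads for control and DEHP males of C57BL/6J and 92.8 ± 18.3 and 33.5 ± 4.6 for those of FVB/N. Bak1, a pro-apoptotic Bcl-2 family member, had ratios of 1.53 and 1.48. The long non-coding RNA 1700030M09Rik had 1.55 and 1.51. Pdia4, a protein disulfide isomerase of the endoplasmic reticulum, reached 1.62 and 1.52 at a far lower level, with 8.7 ± 2.8 and 1.3 ± 1.0 normalized reads for C57BL/6J and 8.6 ± 4.3 and 2.6 ± 1.6 for FVB/N. With a pseudocount of 5 its ratios were 0.83 and 0.95, under the threshold in both strains. Among the members of highest control signal were also Omp, the olfactory marker protein, with ratios of 1.29 and 1.34, and Cdkl4, a cyclin-dependent kinase-like gene, with 1.29 and 1.30.

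**Figure D2:**
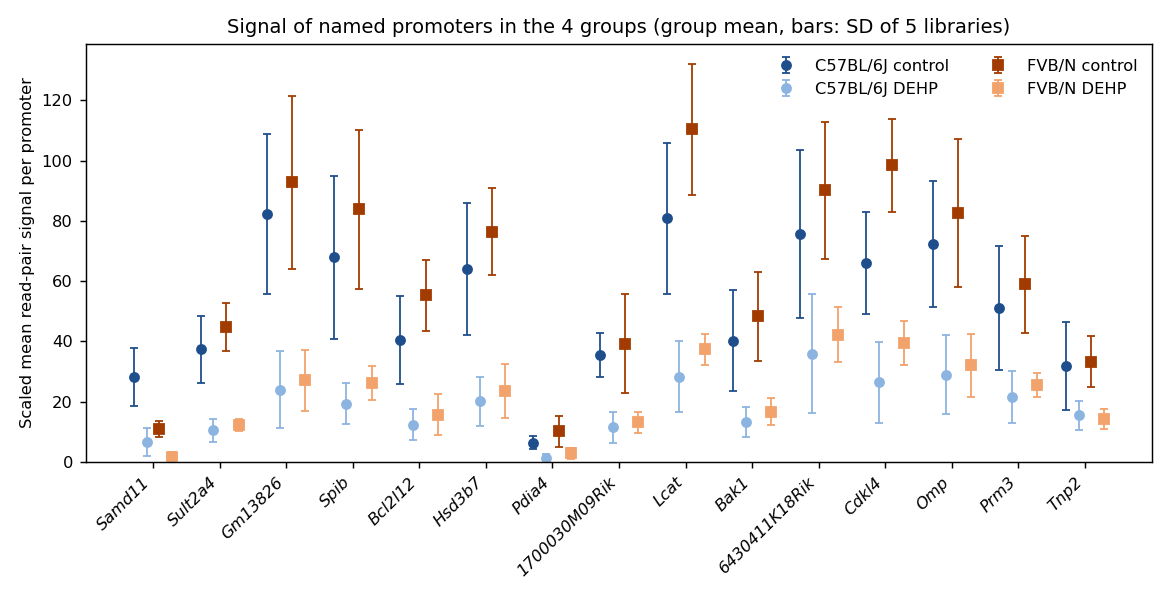
Scaled mean signal (y axis, normalized reads after scaling to a common sum) of 15 named members in the 4 groups, with bars for the authors' SD over 5 libraries, scaled alike. In every promoter shown each control mean lies above the DEHP mean of the same strain, and the bars of C57BL/6J controls are wide.

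After scaling to a common sum, and with both ratios chosen to be at least 1, the ratios of both strains were close to each other for most members. The C57BL/6J ratio less the FVB/N ratio had a median of -0.04, and 78 of the 98 members differed by less than 0.25. The ratio was higher in FVB/N for 60 members and in C57BL/6J for 38. With the means as deposited the medians were 1.78 and 1.15 and the ratio was higher in C57BL/6J for all 98, so the order of the strains depends on the scaling. The 4 members that differed most were Stxbp3b, a transcribed pseudogene (1.31 for C57BL/6J and 1.90 for FVB/N), the long non-coding RNAs AW549542 (1.18 and 1.76) and LOC102633315 (1.37 and 1.91), and 1700019O17Rik (1.64 and 1.12). At the threshold, the members just inside were Gm5122 (1.0 and 1.07), Tnp2 (1.0 and 1.18) and Arhgef15 (1.17 and 1.02). The eligible promoters just outside were Fam83e, 1810013A23Rik and Tie1, whose lower ratios of 0.9997, 0.998 and 0.995 in FVB/N went with 1.23, 1.15 and 1.05 in C57BL/6J. Both ratios were at or above 1.5 in 8 members.

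The spread between libraries was wide. Over the members, the authors' SD divided by the mean had a median of 0.346 for C57BL/6J controls and 0.389 for the exposed males of that strain, and of 0.276 and 0.253 for FVB/N control and DEHP males. Eligible promoters with a scaled mean of at least 20 in the group had 0.299, 0.364, 0.353 and 0.216 in the same order. The members' spread was thus lower than theirs in FVB/N controls and somewhat higher in the other groups. None of 5 values can lie further than 1.8 SD from their mean if the SD has n - 1 in its denominator, which is not stated for the authors' SD. On that condition every control library was above every DEHP library for 6 members in C57BL/6J, against 0.124% of eligible promoters, and for 38 in FVB/N, against 0.883%. It held in both strains for 2 members, against 0.0177% of eligible promoters, and in neither for 56. With n in the denominator the bound is 2 SD, and the counts were 2 for C57BL/6J, 28 for FVB/N and 0 for both, against 0.0353%, 0.592% and 0% of eligible promoters. With means and SDs as deposited and the first bound, 34 members were apart for C57BL/6J, 31 for FVB/N and 12 for both, against 1.77%, 0.662% and 0.15%, so the difference between 6 and 38 was not kept under that scaling. A range of 1 SD, beyond which single libraries can lie, gave 73, 83 and 66 members, against 2.59%, 4.02% and 1.1%. The 2 members apart in both strains under the first bound were LOC102633315 and Fam189b, the latter singled out after its values were seen. Fam189b had 48.6 ± 10.1 and 14.3 ± 1.3 normalized reads for C57BL/6J and 32.3 ± 8.9 and 12.9 ± 2.0 for FVB/N, with ratios of 1.15 and 1.36. As the ratios chose the members, nothing is read from these shares.

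The members were promoters of high signal, which the rule partly brings about, since the control means are the numerators of the ratios and the pseudocount holds down ratios at low level. Their scaled signal in controls, averaged over both strains, had a median of 42.0 normalized reads against 5.63 over the eligible promoters. Averaged over the 4 groups, the level was 29.2 against 6.88. Over the eligible promoters the median ratio was higher in each band of level than in the one below for C57BL/6J, and from 5 upward for FVB/N, where it was lower at 5 to 10 than under 5. At levels under 5 the median ratio was -0.63 for C57BL/6J and -0.45 for FVB/N, at 5 to 10 it was -0.39 and -0.51, at 10 to 20 it was 0.05 and -0.12, at 20 to 40 it was 0.50 and 0.42, and at 40 or more it was 1.05 and 0.99. The share of members rose from 1 of 4239 promoters under 5 to 51 of 1035 at 20 to 40 and 26 of 62 at 40 or more.

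**Figure D3:**
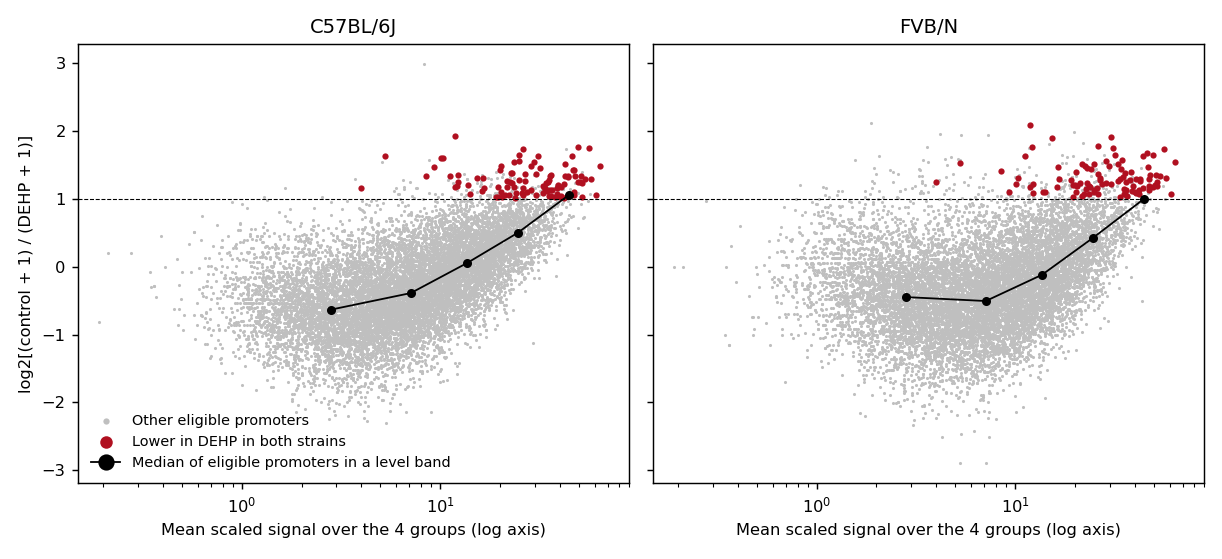
Log2 ratio of control over DEHP (y axis) against the mean scaled signal over the 4 groups (x axis, log scale) for C57BL/6J and FVB/N, one point per eligible promoter, with members in red and the medians of 5 level bands joined in black. The black line runs from -0.63 and -0.45 in the lowest band to 1.05 and 0.99 in the highest, with a dip to -0.51 in the second band for FVB/N. The highest band holds 26 members and the band of 20 to 40 holds 51.

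When the median ratio of about 500 eligible promoters nearest in level was subtracted, a step added after the data were seen, the median over the members was 0.71 for C57BL/6J and 0.82 for FVB/N. After this step a ratio of 1 was reached in both strains by 22 of the 98 members, and by 90 eligible promoters in all (0.795%), 68 of which were not members. Pdia4 (2.22 and 2.13), Samd11 (2.00 and 2.33), Upp1, a uridine phosphorylase (1.81 and 1.84), and Arhgef25, a guanine nucleotide exchange factor (1.78 and 1.66), had the highest values by the lower of both ratios. In single strains other members passed some of these, such as AW549542 with 2.00 for FVB/N. Lcat, Bcl2l12, Hsd3b7 and Bak1 were not among the 22.

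Sequence features that the selection did not use set the members apart from the eligible promoters in description. GC content had a median of 53.3% in members and 46.9% in eligible promoters, and 79 members (80.6%) were at 50% or above against 2590 eligible promoters (22.9%). The number of CG sites had a median of 43.5 against 35, within the limits the rule set. The ratio of observed to expected CG sites was 0.285 in both. Probes with no stretch of 500 bases at a ratio of 0.48 or more made up 48.0% of members and 43.2% of eligible promoters. Probes with a CpG island-like stretch, with a ratio above 0.75 and a GC content above 55%, made up 5.1% and 15.6%. The 214 eligible promoters that were not members but had a level of at least 30 shared part of this. Their median GC content was 51.7%, 64.5% of them were at 50% or above, 61.2% had no stretch at 0.48 or more and 0% had an island-like stretch. In the 48 members of that level these values were 54.3%, 87.5%, 56.2% and 0%.

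Below 40% GC, 1 of 657 eligible promoters was a member (0.152%). From 40% upward the members' share of eligible promoters rose with GC content, from 3 of 2976 (0.101%) at 40 to 45% and 15 of 5104 at 45 to 50% to 48 of 2276 at 50 to 55% and 29 of 309 at 55 to 60%. Over the same bands the median ratio of eligible promoters rose from -0.54 to 0.60 for C57BL/6J and from -0.51 to 0.37 for FVB/N. The rank correlation of ratio with GC content across the 11327 eligible promoters, which come from the same libraries, was 0.435 for C57BL/6J and 0.349 for FVB/N. GC content and level moved together. Among the 262 eligible promoters with a level of at least 30, a level that includes the values the rule used, members were 6 of 82 promoters below 50% GC, 22 of 130 at 50 to 55% and 20 of 50 at 55% or more. When the median ratio of about 500 eligible promoters nearest in GC content was subtracted, also a step added after the data were seen, the median over the members was 0.998 for C57BL/6J and 1.17 for FVB/N. A ratio of 1 was then reached in both strains by 47 members and by 161 eligible promoters in all (1.42%).

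**Figure D4:**
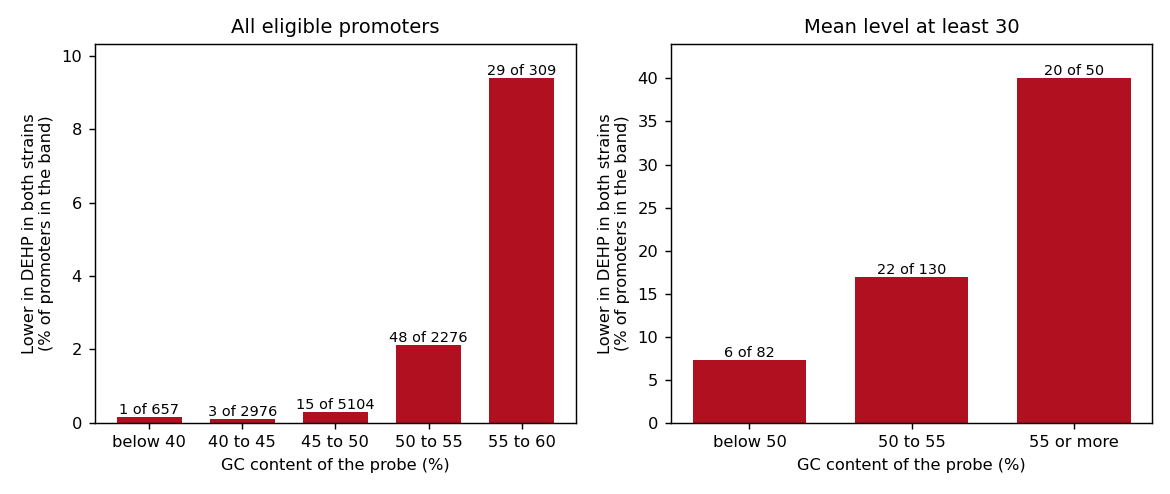
Share of promoters that are members (y axis, percent) by GC content of the probe (x axis, percent), over eligible promoters below 60% GC and over the 262 with a mean level of at least 30. The share is highest in the band of highest GC content in both panels, 29 of 309 and 20 of 50 promoters.

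A second feature was the density of CG sites along the probe. In the eligible promoters CG sites were gathered around the gene start, with 4.53 per 100 bases from 100 bases upstream to 200 downstream and 0.943 per 100 bases in the 1000 bases furthest upstream. In the members these densities were 3.47 and 1.82. The densest 200 bases ended in the last 500 bases of the probe in 45 members (45.9%) and in 7615 eligible promoters (67.2%). Among promoters with a level of at least 30, the 48 members held 2.90 per 100 bases near the start and 2.09 furthest upstream, and the 214 others 2.34 and 1.67. At that level the members were thus denser in both places, and the fall away from the start was shared by the others.

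Many members lay over the coding exons of a neighbouring gene. Of the bases upstream of the gene start, 11% were coding sequence in members and 1.16% in eligible promoters. At a level of at least 30 the share was 14.6% in the 48 members and 6.16% in the 214 others. Downstream of the start the members (20.6%) were close to the eligible promoters (19.5%). Coding exons covered at least 10% of the probe in 39 members (39.8%), against 538 eligible promoters (4.75%). At the high level these were 24 of 48 members (50%) and 44 of the 214 (20.6%). Coding exons of another gene reached into 44 member probes (44.9%), against 1103 eligible ones (9.74%), and at the high level into 26 of 48 (54.2%) and 56 of the 214 (26.2%). Among the members of highest ratio, coding sequence of Setd1a, a histone methyltransferase gene, and of Gm49388 lay under the Hsd3b7 probe (55.9% coding), that of Irf3, an interferon regulatory factor, under the Bcl2l12 probe (29.6%), and that of Ggnbp1 under the Bak1 probe (22.2%). The Lcat probe (33.3% coding) held exons of Lcat and of Slc12a4, a cation-chloride cotransporter. Samd11 and Pdia4 held no coding sequence in their probes.

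**Figure D5:**
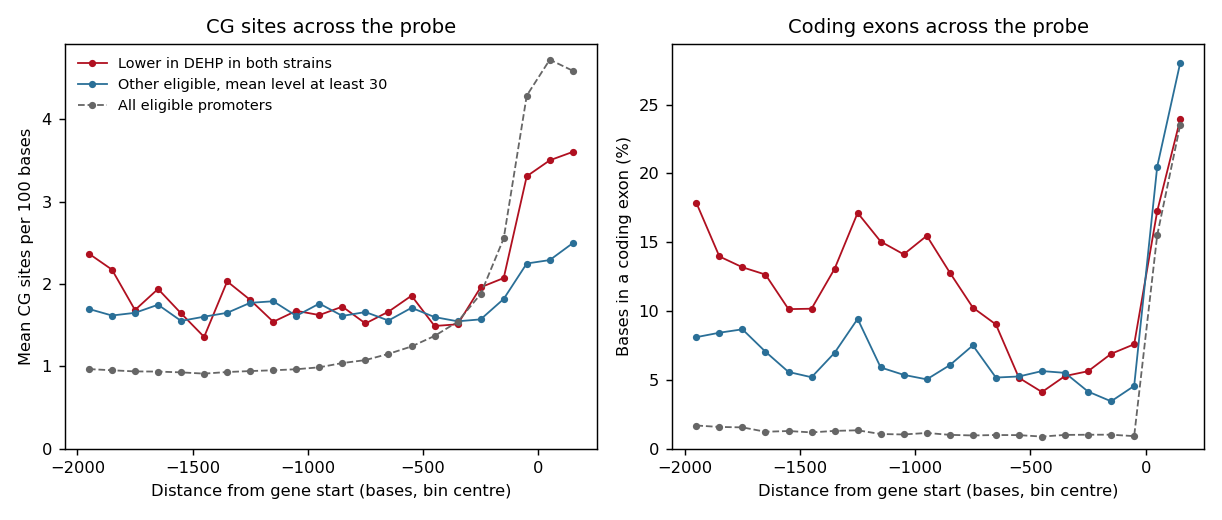
Mean CG sites per 100 bases (left) and percent of bases in coding exons (right) by distance from the gene start (x axis, bases), for members, for the 214 other eligible promoters with a level of at least 30 and for all eligible promoters. Members hold 1.82 CG sites per 100 bases and eligible promoters 0.943 in the furthest 1000 bases, and 11% against 1.16% of the upstream bases are coding. At a level of at least 30 these values are 2.09 and 14.6% for members and 1.67 and 6.16% for the others.

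By gene type, 74 members were protein-coding genes (75.5% against 86.3% of eligible promoters), 18 were long non-coding RNAs (18.4% against 11%) and 3 were transcribed pseudogenes. At a level of at least 30 these differences were not seen. Protein-coding genes were 72.9% of the 48 members and 74.3% of the 214 others, and long non-coding RNAs 18.8% and 22.9%. Members lay on all autosomes except chromosome 13, with 15 of 923 eligible promoters on chromosome 7 and 11 of 647 on chromosome 5. In 4 places 2 members lay within 10000 bases of each other, so 8 members were close neighbours of another member. The probes overlapped in 1 of these pairs. The probes of Gm10863 and of Sox10, a neural crest transcription factor, overlapped almost fully on chromosome 15 and gave ratios of 1.24 and 1.47 for the former and 1.08 and 1.44 for the latter. Arhgef25 (1.59 and 1.30) and F420014N23Rik (1.60 and 1.22) lay 1194 bases apart on chromosome 10. Gm16063 (1.35 and 1.08) and AW549542 lay 1041 bases apart on chromosome 5.

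The last pair was in the protamine cluster of chromosome 16, where the proteins of Prm1, Prm2 and Tnp2 replace histones in the spermatid nucleus. Prm3, protamine 3 (chr16:10790715-10792914), had 69.0 ± 27.7 and 19.8 ± 7.9 normalized reads for control and DEHP males of C57BL/6J, and 49.6 ± 13.6 and 22.8 ± 3.6 for those of FVB/N, with ratios of 1.20 and 1.18. Tnp2, transition protein 2 (chr16:10788456-10790655), lay 59 bases away and had 43.1 ± 19.7, 14.1 ± 4.5, 28.0 ± 7.2 and 12.7 ± 3.0 in the same order. The other promoters of the cluster did not meet the rule. Prm2 had ratios of 0.96 and 0.84, and Prm1 had 0.45 for C57BL/6J and 1.62 for FVB/N. Of 21 spermatid genes in a list, which includes Prm1 and Prm2, Tnp2 alone was a member. The 21 had median ratios of -0.13 and 0.23, with ratios of at least 1 in 1 promoter for C57BL/6J and 3 for FVB/N, against 2.22% and 3.61% of all promoters. Over the 13 eligible ones the medians were 0.25 and 0.62, and the same numbers reached 1, against 1.84% and 2.75% of eligible promoters.

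The authors' flag for spermatogenesis was on 4 members (4.08%, against 1.74% of eligible promoters), namely Prm3, Tnp2, Sstr3, a somatostatin receptor (1.48 and 1.39), and Mea1, male-enhanced antigen 1 (1.02 and 1.28). The flag for sperm part was on 1 member (1.02%, against 0.856% of eligible promoters), Spaca4, a sperm acrosome membrane protein (1.33 and 1.35). The flag for reproduction was on 4.08% of members and 3.74% of eligible promoters.

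A single member carried the imprinting flag (1.02%, against 0.609% of eligible promoters). This was the non-coding gene 6430411K18Rik in the Meg3 to Rian region of chromosome 12 (chr12:109589537-109591736), where coding sequence of Rtl1, an imprinted retrotransposon-derived gene, covered 71.1% of the probe. It had 102.0 ± 37.5 and 32.8 ± 18 normalized reads in C57BL/6J control and DEHP males and 75.8 ± 19.1 and 37.9 ± 8.1 in those of FVB/N, with ratios of 1.05 and 1.07. The probe at the start of Rtl1 itself had 0.19 and -0.06, Meg3 had 0.86 and 0.45, and Rian had -0.87 and -1.79. The rule left out 17 microRNA probes within 100000 bases by their symbols. Their ratios had medians of 0.59 and 0.67 and ran from -0.54 to 1.03 for C57BL/6J and from -1.15 to 1.30 for FVB/N. The only one with both ratios at or above 1 was Mir431 (1.03 and 1.09), whose probe shares 1110 bases with the member.

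None of the other gene lists held a member. Of 16 maternally methylated imprint promoters, which sperm normally keeps unmethylated, 11 were eligible, and over all 16 the median ratios were -0.36 and -0.01, against -0.55 and -0.02 over the 11. Summed over the 16, the scaled means were 92.45 for C57BL/6J controls and 87.11 for the exposed males of that strain, 101.5 for FVB/N controls and 96.85 for exposed FVB/N males, with Cdh15 the highest. As deposited these sums were 124.7, 79.6, 85.4 and 86.8, so the order of the FVB/N groups turns with the scaling. H19, Meg3 and Rasgrf1, from loci methylated on the paternal allele, had ratios of -0.07 and 0.19, 0.86 and 0.45, and -0.62 and 0.47. The Rasgrf1 probe held few reads, with deposited means of 2.4, 3.0, 3.7 and 2.6 in the order of groups above. Of 22 germline genes that somatic cells methylate and sperm does not, 16 were eligible. Over all 22 the median ratios were -0.26 and 0.63, and a ratio of at least 1 was reached by 0 for C57BL/6J and by 5 for FVB/N, against 2.22% and 3.61% of all promoters. Over the 16 eligible ones the medians were -0.30 and 0.63, with 0 and 3 at 1 or above, against 1.84% and 2.75% of eligible promoters. Summed scaled means over the 22 were 125.5, 143.5, 208.2 and 136.6 in the order of groups above. Averaged over the controls of both strains, Fkbp6 was the highest. As deposited the sums were 169.3, 131.1, 175.1 and 122.4, so the order of the C57BL/6J groups turns with the scaling. The part of somatic DNA in the members' signal was not tested. Of 7 blood and epididymal genes 5 were eligible, with median ratios of -0.62 and -1.04 over all 7 and of -0.20 and -1.04 over the 5, summed scaled means of 39.89, 60.19, 32.46 and 67.95 (53.8, 55, 27.3 and 60.9 as deposited), and Ptprc, the leukocyte common antigen CD45, the highest. Of 11 steroid synthesis genes 8 were eligible, with median ratios of -0.25 and -0.76 over all 11 and of -0.11 and -0.64 over the 8.

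After scaling to a common sum, the members were somewhat lower in C57BL/6J than in FVB/N. The rule set no limit on the ratio between strains, but that ratio comes from the same group means that chose the members. The comparison is therefore not independent of the selection. The eligible promoters were not matched for level. Their scaled signal in controls, averaged over both strains, had a median of 5.63 normalized reads against 42.0 in members. Over the members, the log2 ratio of C57BL/6J over FVB/N had a median of -0.20 in controls and -0.17 in DEHP males, against 0.05 and 0.01 over the eligible promoters. It was below 0 for 82 of 98 members (83.7%) in controls and for 71 (72.4%) in DEHP males, against 45.6% and 48.9% of eligible promoters. In none of the 98 members were the 5 libraries of one strain shown to lie apart from those of the other, in controls or in DEHP males, against 0.53% and 0.38% of eligible promoters. With the means as deposited, which sum to more in C57BL/6J controls, the median in controls turned to 0.47.

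Variants between both strains were annotated in the probes of 47 members (48.0%, against 46.6% of eligible promoters). The 51 members without a variant had median control over DEHP ratios of 1.25 and 1.24, and the 14 with 10 or more variants had 1.14 and 1.32. The strain ratio in controls was -0.23 in the former and -0.15 in the latter, against -0.002 and 0.34 in eligible promoters of the same kinds. In DEHP males it was -0.18 and 0.12, against -0.04 and 0.29. Samd11, with 16 variants, was the member with the highest strain ratio, 1.30 in controls and 1.46 in DEHP males.

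Expression values of testicular cell populations, added to the table by the authors from an independent dataset on a scale that is not stated, were given for 80 members and 9257 eligible promoters. In spermatids the median was 5.54 in members and 5.52 in eligible promoters, in spermatocytes 5.25 and 5.42, in spermatogonia 5.0 and 5.25, and in Sertoli cells 5.26 and 5.24. No population was ahead by 1 unit in 56 members (70.0%, against 79.4%). Spermatids led by at least 1 unit in 9 members (11.2%, against 7.96%), with Tnp2 at 14.2 and Prm3 at 12.2 in spermatids and 3.83 and 5.12 in spermatogonia. Spermatocytes led in 6 members (7.5%, against 3.11%), spermatogonia in 4 (5.0%, against 4.06%) and Sertoli cells in 5 (6.25%, against 5.48%), among these last Hsd3b7 at 9.10. These values come from other mice than the sperm libraries, and 18 members had none.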

How the data were processed

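MBD-sequencing of sperm DNA was available for 20 males, 5 in each of 4 groups assigned from the labels. Read-pairs were placed on mm10 by the authors (Bowtie 0.12.7), who discarded pairs with several positions, too long an insert or no CG site, counted pairs over 22480 promoter probes and normalized them with edgeR. The signal values are group means and SDs of normalized reads, deposited with 1 decimal. Without values of single libraries, no permutation test between animals and no repeat without a library could be run, and single-library depth is unknown. No test was made from the group means and SDs. The expression score per gene was added by the authors and is used as deposited. The authors' own log2 fold changes, p-values and FDR are also in the table and were not used.

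The 4 means were scaled to a common sum, and the log2 ratio of control over DEHP was taken with a pseudocount of 1. Library ranges were taken as 1.8 SD on both sides of the mean, with 0.05 allowed for rounding. Named promoters were the 10 members with the highest lower ratio, the 6 of highest control signal, those flagged imprinted, spermatogenesis or sperm part, the 3 nearest the threshold on each side, members within 10000 bases of each other, the 4 differing most between strains, and those in gene lists. The members and lists were chosen with earlier results of these data known. Sequence came from GRCm38.p6, gene types from RefSeq, and exons from GENCODE vM21, with other genes told apart by symbol or synonym. The number of CG sites deposited equalled that in GRCm38.p6 in 95.9% of members. The selection was run on simulated data. The planted changes were larger than the median folds of the members and lay in promoters of high level. No trend of the ratio with level or GC content was simulated, so the run does not show how the rule behaves under such trends. Python 3.11.15, numpy 2.4.6, pandas 2.3.3, scipy 1.17.1 and matplotlib 3.10.9 were used. Alternatives were other scalings, pseudocounts, a level filter, a threshold, all numbers of CG sites and other library ranges. Corrections for level and GC content and a range of 2 SD were added after the data were seen.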

Additional observations from a re-analysis of the deposited data

How the results depend on the processing

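The number of promoters meeting the rule was 98. It was 173 with means as deposited, 902 with a common median, 43 with a pseudocount of 5, 8 with a threshold of 1.5, 182 with all numbers of CG sites, 90 after subtracting the local median in level, and 161 after subtracting that in GC content. Of the 98, 85 were found with means as deposited, 43 with a pseudocount of 5, 8 with a threshold of 1.5, 22 after subtracting the local median in level and 47 after that in GC content. All 98 were found with a common median, a sum without the highest 1% of promoters, a pseudocount of 0.1, a mean of at least 1 and all numbers of CG sites. A smaller pseudocount raises every ratio above 0, and wider CG limits only add promoters, so neither could lose a member. The lowest level of a member was 3.98, and both scalings raised the members' median ratios, to 1.31 and 1.34 without the highest 1%. Keeping all 98 here is therefore no test of them. Eligible promoters with ratios of at least 1 in both strains were 16.7% of those past 1 in either direction, 47.5% with means as deposited, 94.5% with a common median and 27.5% without the highest 1%. All promoters had a median ratio of -0.33 (C57BL/6J) and -0.29 (FVB/N), which became 0.10 and -0.35 as deposited and 0.17 and 0.18 with a common median. Scaling to a common median raised the members' median ratio to 1.85 for either strain, from 1.24 (C57BL/6J) and 1.25 (FVB/N). With means as deposited it was 1.78 for C57BL/6J, while the FVB/N value was 1.15. The median ratio of C57BL/6J over FVB/N controls reversed from -0.203 to 0.465 with means as deposited. Members whose control libraries all lay above the DEHP libraries numbered 6 for C57BL/6J and 38 for FVB/N (0.124% and 0.883% of eligible promoters). They numbered 73 and 83 with a range of 1 SD (2.59% and 4.02%), 34 and 31 with means and SDs as deposited (1.77% and 0.662%), and 2 and 28 with a range of 2 SD (0.0353% and 0.592%). Of the 58 ratios of named members, 54 were at least 1 with means as deposited and 40 with a pseudocount of 5. All 58 were above 0 under every scaling and pseudocount tried, but a pseudocount cannot turn the sign of a ratio. The named members were also chosen with both ratios at least 1, so their sign was largely set by the selection.

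No paired analysis was possible because the labels give no shared animal, and leaving out a library was not run because only group means and SDs were used. In some members of low signal, such as Pdia4 and Upp1, a DEHP mean was near 1 normalized read. The effect of depth was not tested.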
